A study of Mus musculus with 4 samples.

Results

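Cholesterol synthesis and lipid handling were examined through 38 genes in macrophages of mice with and without CD13. The genes were listed by function, 17 for the making of sterols and its control and 21 for the efflux, binding, esterification and desaturation of lipids. A probe counted for a gene when the array's annotation gave it that symbol. It was kept when its detection p-value, the chance of such a signal on background beads, was under 0.01 on at least 2 of the 4 arrays. Where several probes of a gene were kept, the one with the highest mean deposited signal stood for the gene. Of the 38 genes, 33 had a named probe and 27 were measured, 12 of the 17 for synthesis and 15 of the 21 for efflux and storage, among 10335 genes and unnamed probes tested.

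Macrophages of 2 genotypes were compared on Illumina MouseWG-6 v2.0 BeadChips. The wild type group (WT, 2 arrays) and the CD13 null group (KO, 2 arrays) were both labelled as peritoneal macrophages of C57BL/6 mice, and the series text calls the cells resting and names no treatment. CD13 is a cell-surface aminopeptidase encoded by Anpep. The series text mentions bone marrow derived macrophages as well, and the arrays were taken here as peritoneal, as each is labelled. The sources used here do not give the allele, its background crosses, the age and sex of the mice, or how many animals contributed to an array, and p-values therefore describe no more than array-to-array spread, which may be technical. Across the 4 arrays 13659 to 14823 probes were above background, the median deposited intensity ran from 109.0 to 167.1, and Pearson's r across genes was 0.979 to 0.981 within and 0.967 to 0.977 between genotypes. Genes are not independent replicates for such an r. Anpep had log2 intensities of 13.58 and 13.40 in WT and 11.12 and 11.03 in KO, a log2 change of -2.41 ± 0.18 (SE, 2 arrays per group), which is 5.33-fold lower in KO (limma adjusted p = 0.0261). Its probe stayed above background in KO, and where the probe lies relative to the deletion was not analysed here. The adjusted p of Anpep was 0.123 to 0.173 when any 1 array was left out.

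A cell makes cholesterol from acetyl-CoA through mevalonate, then through squalene and a series of sterols. The transcription factor SREBP-2, encoded by Srebf2, turns on these enzymes when membrane sterol is low, and Insig proteins hold it back when sterol is plentiful. Macrophages also take up lipid from dying cells and lipoproteins, pass cholesterol outward through ABC transporters and apolipoprotein E under liver X receptors (LXR), and store fatty acids and sterols as esters in droplets.

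The stretches shown next lie upstream of the annotated start of 5 members, given because they hold, or lack, the motifs through which such genes are classically regulated. RefSeq promoter entries (GRCm38.p6, 250 bases before to 50 after the start) matched 26 of the 38 genes, 13 for synthesis and 13 for efflux and storage. Both strands were searched for the sterol regulatory element TCACNCCAC bound by SREBP, its core CACNCCAC, which lies inside it, and the CCAAT box bound by NF-Y. The stretches run from 100 bases to 1 base before the start for Insig1, Apoe and Plin2, and were placed around the motif for Hmgcs1 (187 to 88 bases before it) and Pmvk (156 to 57 bases before it). Capitals mark the matches, and a match read on the other strand appears as its reverse complement. Hmgcs1 (chr13:119690164-119690263, + strand) held the only full sterol element among the members. Pmvk (chr3:89454385-89454484, + strand) and Apoe (chr7:19699189-19699288, - strand) are members described below, Insig1 (chr5:28071312-28071411, + strand) held a core, and Plin2 (chr4:86670060-86670159, - strand) is a storage gene with a CCAAT box.
Hmgcs1: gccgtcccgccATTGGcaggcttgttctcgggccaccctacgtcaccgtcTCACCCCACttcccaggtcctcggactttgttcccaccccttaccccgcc
Pmvk: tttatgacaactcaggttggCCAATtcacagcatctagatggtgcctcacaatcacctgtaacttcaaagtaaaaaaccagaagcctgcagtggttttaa
Insig1: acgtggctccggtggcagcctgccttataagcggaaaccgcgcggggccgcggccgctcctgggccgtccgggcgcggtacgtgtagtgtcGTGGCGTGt
Apoe: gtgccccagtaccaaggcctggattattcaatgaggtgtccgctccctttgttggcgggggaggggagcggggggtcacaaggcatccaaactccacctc
Plin2: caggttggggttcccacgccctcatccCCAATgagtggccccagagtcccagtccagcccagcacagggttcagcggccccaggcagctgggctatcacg

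The CCAAT box was found in 12 of the 13 synthesis genes (92.3%), in 8 of the 13 efflux and storage genes (61.5%) and in 41.1% of all 27025 genes with an entry. Some genes have more than 1 annotated start, and counted per start window the shares were 75%, 50% and 37.4%. The full sterol element stood in 1 of 13 synthesis genes, Hmgcs1, in 0 of 13 efflux and storage genes and in 1.44% of all genes. Its core stood in 3 of 13 synthesis genes, Acat2, Hmgcs1 and Insig1, in 0 of 13 of the other group and in 7.12% of all genes. Exact direct repeats of AGGTCA with 4 bases between the copies (DR4, the LXR type) or 1 base between them (DR1, the PPAR type) were in none of these member windows and in 0.0148% and 0.0481% of all genes. A match is a string of letters and no proof of a site, and a missing match says only that the letters are not in this window. In Cyp51 the CCAAT box began 29 bases before the start, and in Pmvk 136 bases before it.

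**Figure D1:**
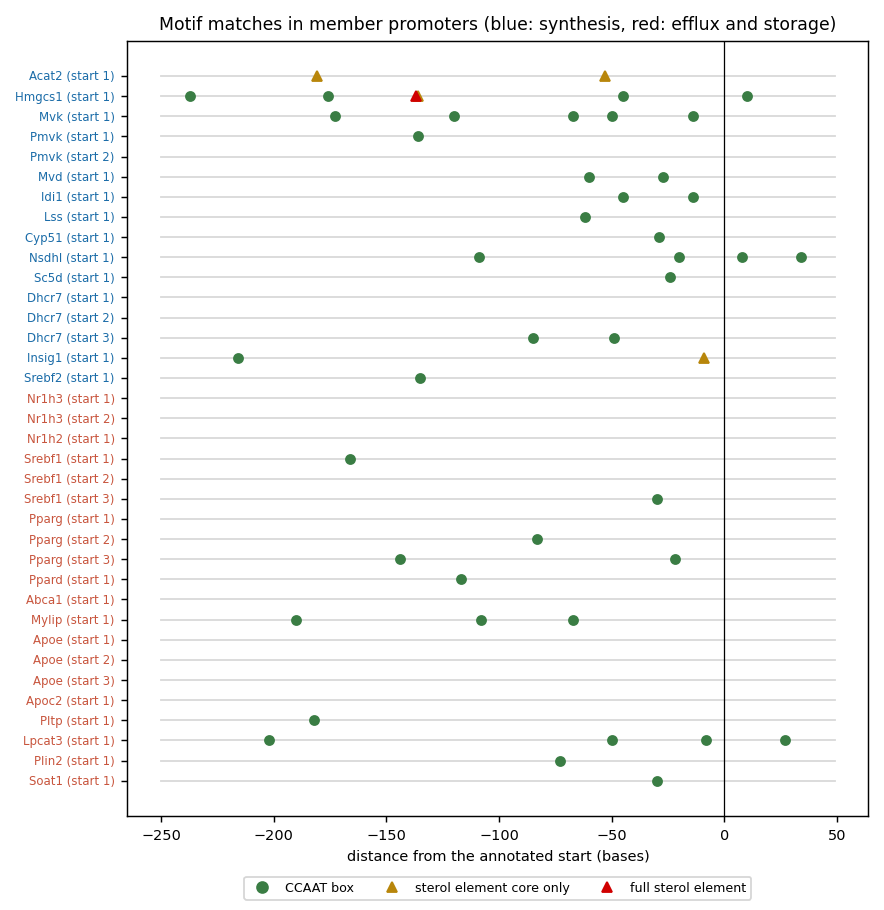
Matches to the CCAAT box (circles) and the sterol regulatory element or its core (triangles) in the promoter windows of 26 members, with the distance from the annotated start in bases on the x axis and 1 line per annotated start. CCAAT boxes appear in 12 of 13 synthesis genes (blue names) and 8 of 13 efflux and storage genes (red names).

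At an adjusted p under 0.05 (limma, Benjamini-Hochberg over all 10335), 0 of the 27 measured members were higher and 0 were lower in KO. The same test called 10 of all genes and unnamed probes (0.0968%), 5 higher (0.0484%) and 5 lower (0.0484%). When quantile normalization was replaced by scaling each array to an equal median of all probes, 14 were called higher and 187 lower, with the median of all genes at -0.33, and this was the only one of 15 other settings in which any member passed, Dgat2 (higher) and Scd1 (lower). At an unadjusted p under 0.05 there were 5 members (18.5%), Pmvk, Stard4, Apoe and Dgat2 with higher and Scd1 with lower means in KO, against 9.35% of all genes. The values of the 2 genotypes did not overlap for 10 of the 27 members (37.0%), 6 higher and 4 lower, against 39.9% of all genes, 20.8% higher and 19.1% lower, so the members' share was close to that of all genes. With a change of at least 1.5-fold as well there were 5 members (18.5%), the same ones as at the unadjusted p, 4 higher and 1 lower, against 8.87% of all genes, 3.61% higher and 5.26% lower. Such counts are no support for a change of the whole group. Members were chosen with earlier results of these data known, and genes on the same arrays are not independent. Dgat2 was also kept only through its signal in KO and so had to differ.

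The mean change was under 1.5-fold in either direction for 21 of the 27 members. The same held for 9297 of all 10335 genes and unnamed probes, a larger share. Members were therefore not closer to equality than genes at large. For 20 of the 21 the 95% interval of the change lay inside 2-fold either way, 10 for synthesis and 10 for efflux and storage. Inside 1.5-fold either way lay 3 intervals, so with 2 arrays per group most members could still differ by more than that. The median size of a member's change was 0.24 on the log2 scale, beside median within-group ranges of 0.373 in WT and 0.278 in KO. The change was larger than both within-group ranges for 5 members, the same 5 as above. That rule implies no overlap of the genotypes, so it is no separate support, and Dgat2 was kept only through KO. Its share over all genes was not taken.

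**Figure D2:**
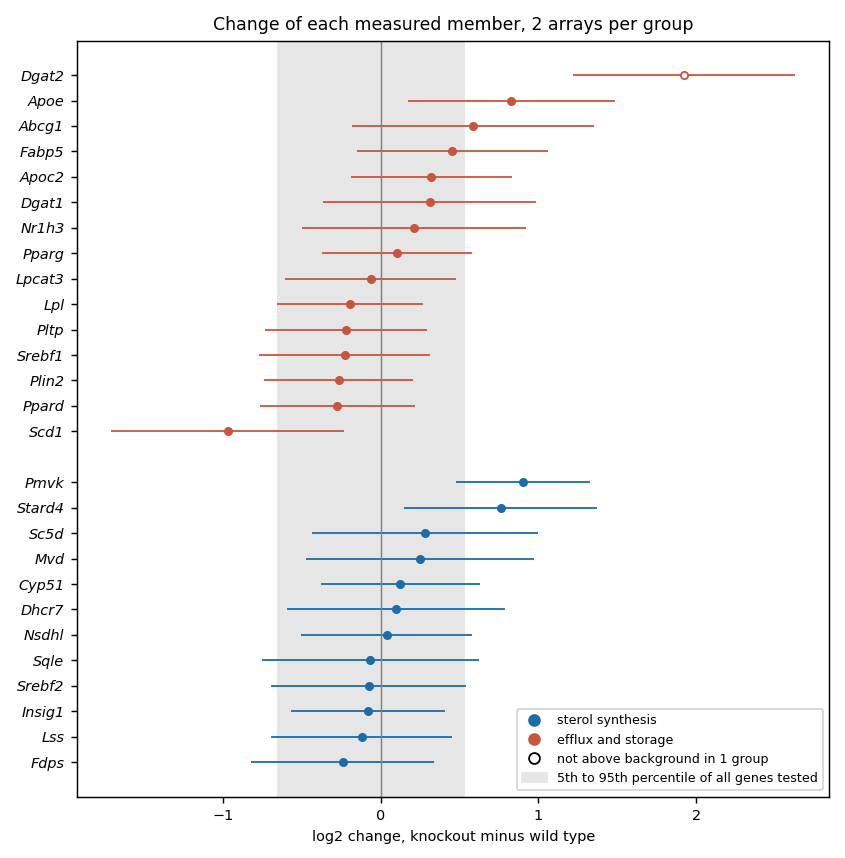
Log2 change (KO minus WT, x axis) of each of the 27 measured members with its 95% interval, synthesis in blue and efflux and storage in red, and the 5th to 95th percentile of all genes (-0.65 to 0.53) as a grey band. Most intervals cross 0; Dgat2, Pmvk, Apoe, Stard4 and Scd1 do not, and the open symbol marks Dgat2, which was not above background in WT.

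In the early mevalonate arm 3 of 7 genes were measured and 0 passed. Pmvk, phosphomevalonate kinase, had log2 intensities of 6.76 and 6.65 in WT and 7.59 and 7.62 in KO. Both KO arrays were above both WT arrays, by more than the arrays of a genotype differed. The log2 change was 0.90 ± 0.17 (SE, 95% interval 0.48 to 1.33), or 1.87-fold, with a limma adjusted p of 0.270. It stayed between 0.85 and 0.96 when any 1 array was left out, and was 0.52 without background correction. Mvd, which decarboxylates mevalonate diphosphate, had a log2 change of 0.25 ± 0.29, and Fdps, farnesyl diphosphate synthase, one of -0.24 ± 0.23, both with overlapping genotypes (limma adjusted p = 0.851 and 0.817). Fdps had another kept probe, with a change of -0.10.

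The genes on either side of these steps could not be read. Acat2, the acetyl-CoA thiolase, and Hmgcs1, the HMG-CoA synthase, had no probe of that name. Mvk, mevalonate kinase, and Idi1, the isopentenyl diphosphate isomerase, were not above background on any array, with lowest detection p-values of 0.0171 and 0.0897.

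In the sterol arm 6 of 7 genes were measured, 0 passed, and the genotypes overlapped for each of the 6. Their log2 changes ran from -0.12 to 0.28 and their limma adjusted p-values from 0.828 to 0.977. Sc5d, lathosterol oxidase, had the smallest p of the 6. Its log2 intensities were 6.81 and 6.49 in WT and 7.29 and 6.58 in KO, and the KO array 2 value, not above background, lay between those of WT. The change was 0.28 ± 0.29 (95% interval -0.43 to 1.00). Sqle, squalene epoxidase and a rate-limiting step of this arm, had a change of -0.06 ± 0.28. Lss, which closes the first sterol ring system, had -0.12 ± 0.23, and Cyp51, the lanosterol demethylase, 0.12 ± 0.20. Nsdhl, a later demethylation enzyme, had 0.04 ± 0.22, and Dhcr7, which makes cholesterol from 7-dehydrocholesterol, 0.10 ± 0.28 and a KO array 1 value not above background. The 3 kept probes of Nsdhl gave changes from -0.42 to 0.04, and the probe at -0.42, not the used one, was lower in KO without overlap. Fdft1, squalene synthase, had no probe of that name.

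Of the 3 control and transport genes all were measured and 0 passed. Stard4, a carrier that moves cholesterol between membranes and is a target of SREBP-2, had log2 intensities of 9.09 and 8.50 in WT and 9.58 and 9.52 in KO. The KO arrays lay together above both WT arrays, and the WT arrays lay apart from each other. The log2 change was 0.76 ± 0.24 (95% interval 0.15 to 1.37), or 1.69-fold, with a limma adjusted p of 0.444. WT array 2 set much of its size: the change was 0.46 without that array and 1.06 without WT array 1. Srebf2 itself had a change of -0.08 ± 0.25 and Insig1 of -0.08 ± 0.20, with overlapping genotypes on the used probes. The 3 kept probes of Insig1 gave changes from -0.53 to -0.08. Those at -0.53 and -0.42 were lower in KO without overlap, and the used probe had the smallest change. Apart from Stard4 and Pmvk, the measured synthesis genes, 10 in number, gave log2 changes between -0.24 and 0.28 on the used probes.

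**Figure D3:**
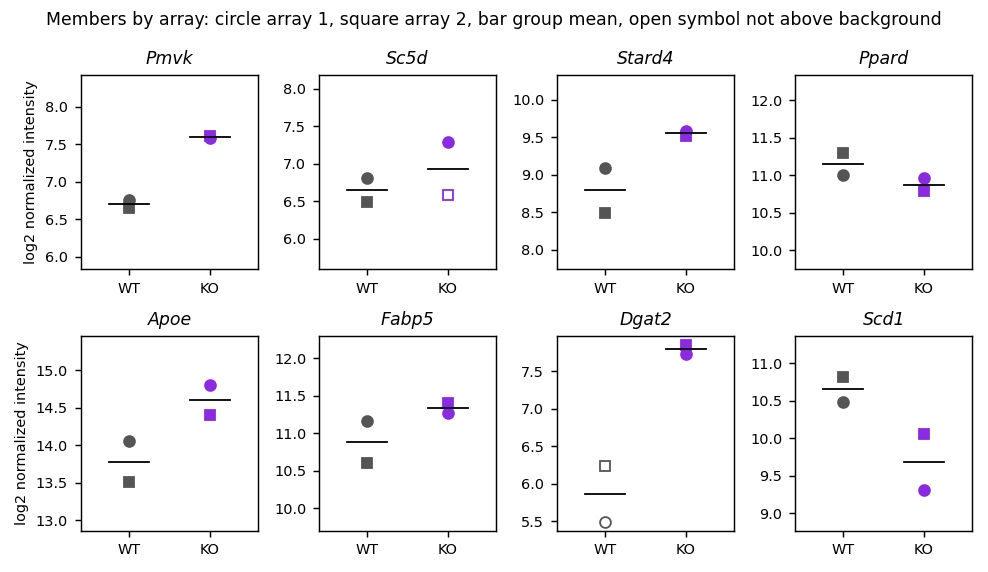
Log2 normalized intensity (y axis) of 8 members on each array, WT in grey and KO in purple, with circles for array 1, squares for array 2, bars for the mean of a genotype and open symbols for arrays not above background. The genotypes overlap for Sc5d, and for Fabp5, Stard4 and Apoe the lowest WT point is array 2.

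Of the 5 transcription factors 4 were measured and 0 passed. Ppard, a fatty-acid-sensing nuclear receptor, had the smallest p, with log2 intensities of 11.00 and 11.30 in WT and 10.96 and 10.79 in KO. The KO arrays lay below those of WT by a narrow margin, and the change was -0.27 ± 0.20 (limma adjusted p = 0.744). Nr1h3, an LXR gene, had a change of 0.21 ± 0.28, and Pparg, the driver of lipid uptake and storage programmes, 0.10 ± 0.19. Another kept probe of each gave -0.07 for Nr1h3 and -0.25 for Pparg, so their directions depend on the probe. Srebf1, which drives fatty acid synthesis, had -0.23 ± 0.22. Nr1h2, the other LXR, had no probe of that name.

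Of the 7 efflux, lipoprotein and LXR target genes 5 were measured and 0 passed. Apoe encodes apolipoprotein E, which macrophages secrete and which accepts effluxed cholesterol. Its log2 intensities were 14.05 and 13.51 in WT and 14.81 and 14.40 in KO. Both KO arrays were above both WT arrays, and the arrays of each genotype lay apart. The log2 change was 0.83 ± 0.26 (95% interval 0.17 to 1.48), or 1.77-fold, with a limma adjusted p of 0.443. It was 0.56 without WT array 2 and 1.10 without WT array 1.

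Abcg1, the transporter that loads cholesterol onto high-density lipoprotein, had a change of 0.59 ± 0.31 (95% interval -0.18 to 1.35, limma adjusted p = 0.642) with overlapping genotypes. That value was 0.24 without WT array 2 and 0.93 without WT array 1. Apoc2, the cofactor of lipoprotein lipase, had 0.32 ± 0.20 with no overlap (limma adjusted p = 0.710). Pltp, the phospholipid transfer protein, had -0.22 ± 0.21, and Lpcat3, which makes polyunsaturated phospholipids, -0.06 ± 0.22, both with overlap. A further kept probe of Lpcat3 gave 0.08. Abca1, which starts efflux to apolipoprotein A-I, was not above background on any array, with deposited intensities of 87.9 to 147 and a lowest detection p-value of 0.416. Mylip, an LXR-induced ubiquitin ligase, was above background on 1 array only and was not kept.

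Of the 4 genes of fatty acid release, binding and droplet coating 3 were measured and 0 passed. All 3 changed by under 1.5-fold with genotypes that did not overlap, 1 higher and 2 lower in KO. Of all genes, 39.9% did not overlap. Fabp5, a cytosolic fatty acid carrier, had log2 intensities of 11.17 and 10.60 in WT and 11.27 and 11.40 in KO. The KO arrays lay above WT array 1 by little and above WT array 2 by more. The change was 0.46 ± 0.24 (limma adjusted p = 0.650), and 0.17 without WT array 2 and 0.74 without WT array 1. Lpl, the lipase that frees fatty acids from lipoproteins, had -0.19 ± 0.19, and Plin2, the main droplet coat of macrophages, -0.27 ± 0.19 (limma adjusted p = 0.817 and 0.744). A dimmer kept probe of Lpl gave -0.82, and the used probe gave 0.04 when arrays were scaled to a common median over the detected probes. Fabp4, the fatty acid carrier of adipocytes and of many macrophages, was not above background on any array (lowest detection p-value 0.499).

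Of the 5 esterification and desaturation genes 3 were measured and 0 passed, and this role held the largest changes in both directions. Dgat2, which joins the last acyl chain to make triglyceride, had log2 intensities of 5.50 and 6.24 in WT and 7.74 and 7.85 in KO. It was not above background on either WT array and above it on both KO arrays. Its mean, 5.87 in WT and 7.80 in KO, was at least 2.78-fold higher in KO. That bound sets the KO mean against, on each WT array, the probe's own value or, where that is lower, the dimmest signal above background on the array. The fitted change of 1.92 ± 0.28 had a limma adjusted p of 0.182 and ranked 37 of 10335 by p. Dgat2 was kept only through its signal in KO and so had to differ. Its p, its rank and its place as the largest change are therefore no support. The fitted change was 1.02 without background correction and 1.03 in the authors' normalized values, smaller than the bound.

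Scd1, the desaturase that makes oleic and palmitoleic acid, had log2 intensities of 10.48 and 10.82 in WT and 9.31 and 10.05 in KO. Both KO arrays were below both WT arrays, and KO array 1 lay well below KO array 2. The log2 change was -0.97 ± 0.30 (95% interval -1.71 to -0.23), 1.96-fold lower in KO, with a limma adjusted p of 0.426. It was -0.60 without KO array 1 and -1.34 without KO array 2. Dgat1, the other triglyceride-forming acyltransferase, had 0.31 ± 0.27 with overlap. Scd2, a related desaturase, was not above background on any array (lowest detection p-value 0.0481), and Soat1, which esterifies cholesterol, had no probe of that name.

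Synthesis was set against efflux and storage without a test, since the members were chosen with results known. The median log2 change was 0.07 over the 12 synthesis genes (range -0.24 to 0.90) and 0.10 over the 15 efflux and storage genes (range -0.97 to 1.92), beside 0.01 over all genes. The median of efflux and storage was 0.10 with Dgat2 at its bound and 0.02 without Dgat2. The difference of the medians was -0.04, and 0.04 to 0.10 when 1 array was left out, so its sign depended on the arrays used. Means were higher in KO for 7 of 12 and 8 of 15, against 51.7% of all genes. The 2 genotypes did not overlap for 2 of 12 synthesis genes (16.7%) and 8 of 15 efflux and storage genes (53.3%, 4 in each direction), against 39.9% of all genes. Dgat2 is among the 8 with higher means and the 8 without overlap. It was kept only through KO and so had to differ.

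The mean deviation of the synthesis genes from their own 4-array means was -0.03 and -0.12 on WT arrays 1 and 2 and 0.10 and 0.06 on KO arrays 1 and 2. For efflux and storage genes it was -0.05 and -0.12 in WT and 0.01 and 0.15 in KO. Without Dgat2, which was kept only through KO, those means were 0.038 and -0.082 in WT and -0.049 and 0.093 in KO, and the genotypes overlapped. The median deviation of the 15 genes overlapped too, at 0.050 and -0.070 in WT and -0.036 and 0.097 in KO, while that of the synthesis genes was 0.0004 and -0.18 in WT and 0.059 and 0.12 in KO, without overlap.

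The difference between the groups of genes, synthesis minus efflux and storage, was taken on each array. By means it was 0.020 and -0.0074 in WT and 0.083 and -0.095 in KO, and the genotypes overlapped. By means without Dgat2 it was -0.072 and -0.041 in WT and 0.15 and -0.034 in KO, which did not overlap by a narrow margin. By medians it was -0.050 and -0.11 in WT and 0.095 and 0.020 in KO, also without overlap. Whether the genotypes overlapped on this difference therefore depended on how the genes were summarised.

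**Figure D4:**
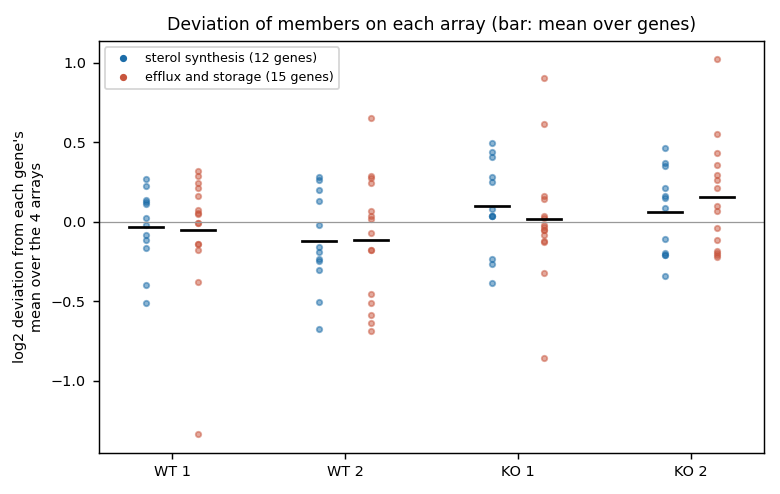
Deviation of each member from its own mean over the 4 arrays (log2, y axis) on each array, with a bar for the mean over the 12 synthesis or 15 efflux and storage genes. The bars run from -0.12 to 0.15, and the efflux and storage bars include Dgat2.

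The other genes of these pathways, listed by function, were read the same way. Of 15 further genes of sterol synthesis and uptake 10 were measured, and 0 passed in either direction, with a median change of 0.14 and a range of -0.56 to 0.58. Of 35 further lipid handling genes 24 were measured, and 0 passed in either direction, with a median of 0.18 and a range of -2.14 to 0.83. At an unadjusted p under 0.05 (limma) there were 1 of the 10 (10%) and 4 of the 24 (16.7%), against 9.35% of all genes. Of the 4, the 2 with lower means in KO, Ch25h and Apoc1, were kept only through WT.

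Among the 24 further lipid handling genes 3 (12.5%) changed by at least 1.5-fold with no overlap, against 8.87% of all genes. Of the 10 further sterol genes 0 did. Ch25h and Apoc1 were kept only through their signal in WT and so had to differ. Ch25h, which makes 25-hydroxycholesterol, a suppressor of SREBP processing, had log2 intensities of 7.69 and 8.08 in WT and 6.27 and 5.22 in KO. It was not above background on either KO array, and its mean of 7.89 in WT against 5.75 in KO gave at least 2.61-fold lower in KO (limma adjusted p = 0.237). Apoc1, an apolipoprotein gene beside Apoe on chromosome 7, had 7.45 and 8.21 in WT and 6.20 and 5.71 in KO. It was likewise not above background in KO, and its mean of 7.83 against 5.96 gave at least 2.52-fold lower (limma adjusted p = 0.226). Its neighbours Apoe and Apoc2 had higher means in KO. The fitted changes of Ch25h and Apoc1 were -2.14 and -1.87, and -1.15 and -1.01 without background correction, which is smaller than the bounds. Mgll, which breaks down monoacylglycerol, had 10.01 and 8.92 in WT and 10.25 and 10.35 in KO, a change of 0.83 ± 0.37 (limma adjusted p = 0.577) that was 0.28 without WT array 2 and 1.38 without WT array 1.

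Markers of the cells in the sample moved beside these results. The 6 measured of 7 general macrophage markers summed to normalized intensities of 123518 and 127652 in WT and 115648 and 109659 in KO. All 5 markers of large peritoneal macrophages (Gata6, Timd4, Icam2, Selp, F5) were measured, with lower means in KO (median log2 change -0.93, 0 passed), and summed to 10034 and 22972 in WT and 7941 and 7289 in KO. WT array 2, on which Stard4, Apoe, Abcg1, Fabp5 and Mgll were lowest, had the highest sum. Other members went the other way, and Mvd, Insig1, Ppard, Plin2 and Scd1 were highest on that array. There 4 of 12 synthesis genes and 7 of 15 efflux and storage genes lay above their own 4-array mean. The 2 measured of 4 small peritoneal macrophage markers summed to 18679 and 15918 in WT and 9740 and 14183 in KO, and the 2 measured of 5 B cell markers to 2185 and 2954 in WT and 847 and 1833 in KO. Of the 6 T and NK cell markers only Lat was measured, at 116 and 262 in WT and 830 and 625 in KO. The 3 measured of 6 neutrophil markers summed to 1036 and 2642 in WT and 2612 and 2250 in KO. The part of these shifts in the lipid genes was not tested, and in RNA from whole samples fewer cells of a type and less RNA per cell cannot be told apart. Adipocytes, which carry many of the same lipid genes, had 6 of 7 markers with a probe (Adipoq, Plin1, Cidec, Lep, Retn and Lipe), and none was above background on enough arrays to be kept. No marker of mesothelial cells (0 of 4) or eosinophils (0 of 3) was kept either, and the 3 measured of 5 mast cell markers summed to 318 and 434 in WT and 186 and 366 in KO.

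The direction of each member was followed over the 15 other settings. The sign was the same in every setting that gave a value for 13 of the 27 members. Among these were Pmvk, Stard4, Apoe, Abcg1, Fabp5, Dgat2 and Scd1. It changed at least once for 14, among them Sc5d, Mvd and Fdps. Some settings could not change a sign. The intensity trend and the replicate block leave the change itself as it is. Leaving out an array cannot reverse a member whose genotypes do not overlap, and of the members named as constant only Abcg1 overlapped. Dgat2 was also kept only through KO. The share of all genes with a constant sign was not taken, so the count is no support for these changes. Of the measured members 4 lie on chromosome 7 with Anpep, Dgat2 at 19.3 Mb from it and Apoe, Apoc2 and Dhcr7 at 60.1 to 64.0 Mb (GRCm38.p6).

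**Figure D5:**
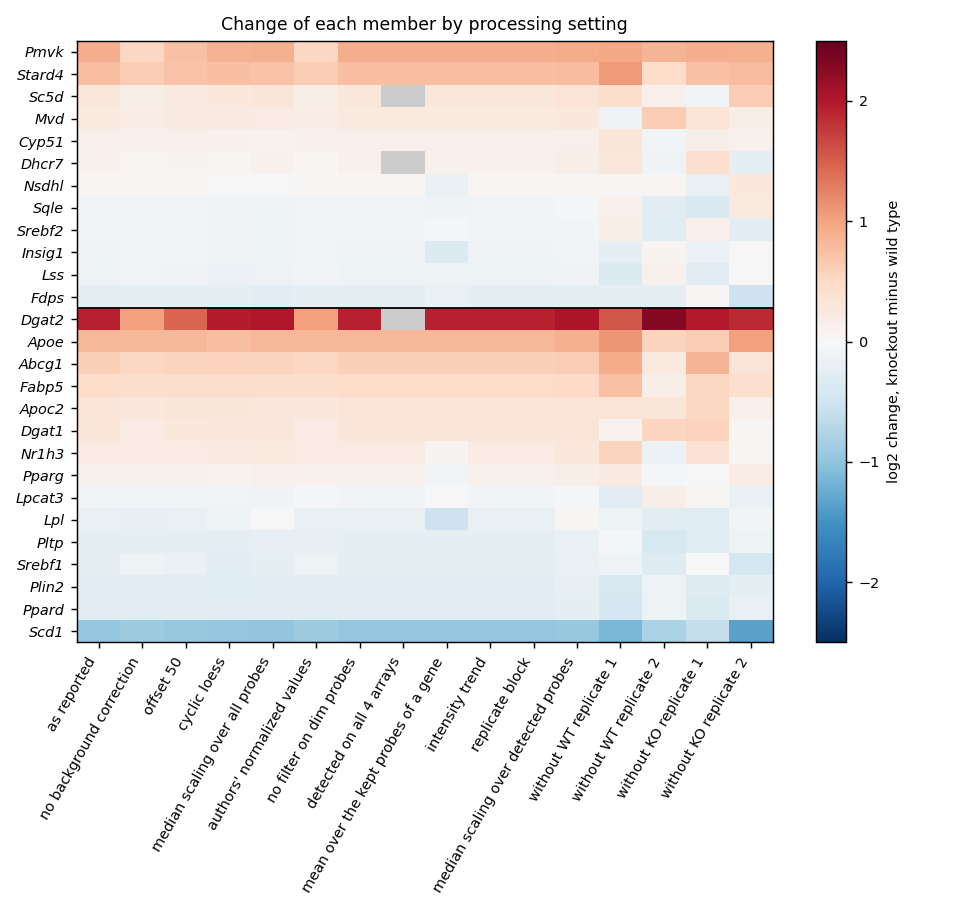
Log2 change (KO minus WT, colour scale) of each measured member (rows) under the processing reported here and 15 other settings (columns), with synthesis above the line, efflux and storage below it and grey where a gene was not kept. Values scaled to the median of all probes are given relative to the median change of all genes. Pmvk, Stard4, Dgat2, Apoe and Scd1 keep their sign across settings in which they were kept, as do 8 further members, and 14 members change sign at least once. Some settings cannot change a sign.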

How the data were processed

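RNA of 2 WT and 2 KO arrays was measured, and groups were taken from the sample titles. The authors deposited, per probe, an average bead intensity (linear scale, not normalized between arrays) and a detection p-value, and a further intensity table that, per the series text, GenomeStudio had quantile normalized. The version of GenomeStudio and any background subtraction in it are not given in the sources used here. From the deposited intensity, log2 values were made with neqc (normexp informed by the detection p-values, offset 16, quantile normalization; limma 3.58.1, R 4.3.3).

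Of 45281 probes, 34885 had 1 symbol in the platform annotation, 18 several and 10378 none, and 34807 were updated by gene ID through the RefSeq table of GRCm38.p6, which was used for names, chromosomes and distances only. A detection p under 0.01 on at least 2 of 4 arrays left 14881 probes, and 1 probe per gene gave 10335 features, 8238 of them named. KO was compared with WT in limma (lmFit, eBayes), and p-values were adjusted over all of them by Benjamini-Hochberg, with a threshold of 0.05. For a single value 2 arrays against 2 allow no two-sided exact permutation p below 0.333. The error model of GenomeStudio, which the series text names, was not refitted. The fit was tested on simulated data.

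All 38 members are accounted for. Values on every array are given for Anpep and, in each role, for members that passed, then those with no overlap and at least 1.5-fold change, then the one with the smallest unadjusted p, and for lipid genes of the other lists with no overlap and at least 1.5-fold change. Members, lists and markers were chosen with earlier results of these data known. Same-numbered arrays did not deviate together (correlation of deviations from group means -0.002), so numbers were not used as pairs. The alternatives were background correction and its offset, normalization, the authors' values, the filter, averaging a gene's probes, an intensity trend in the variance, the replicate number as a block and each array left out. The number of arrays limits the precision.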

Additional observations from a re-analysis of the deposited data

How the results depend on the processing

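The 2 arrays per group limit the precision of every change, and a probe not above background in a group gives only a bound. Over 15 other settings the count of members that passed was 0 in each direction except under scaling to the median of all probes. There 1 member passed higher (Dgat2, adjusted p = 0.0198) and 1 lower (Scd1, adjusted p = 0.0404), with 2 of the further pathway genes (Ch25h and Apoc1, adjusted p = 0.00612), among 14 genes higher and 187 lower (93.0% of calls lower, against 50%). Under that scaling the median of all genes was -0.33, against 0.01 as reported. Relative to this median the changes were 2.00 for Dgat2, -0.99 for Scd1, -1.98 for Ch25h and -1.77 for Apoc1. Over all genes, 8 were lower without background correction, with offset 50 and in the authors' values, and 10 with an intensity trend. Without a filter 3 were higher and 3 lower, with Anpep at an adjusted p of 0.0551. With detection on all 4 arrays 1 was higher and 3 lower, and Dgat2, Sc5d, Dhcr7, Ch25h and Apoc1 had no value because they were not kept. Leaving out 1 array gave 3 to 7 higher and 2 to 5 lower. With the replicate number as a block there were 6 higher and 7 lower genes and 0 members, the lowest member adjusted p being 0.113 (Dgat2). No pairing is stated in the labels, and no call of a member changed under the block.

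The median of efflux and storage was 0.011 without a filter and 0.011 as a mean over probes, and -0.020 to 0.087 with 1 array left out. The synthesis minus efflux and storage difference was 0.057 without a filter and 0.042 to 0.096 with 1 array left out. As a mean over probes, Nsdhl (-0.17), Pparg (-0.072) and Lpcat3 (0.011) changed direction, as did Lpl (0.037) under scaling over detected probes, a setting chosen after seeing the data. With 1 array left out the sign changed at least once for Mvd (-0.14 to 0.63), Fdps (-0.51 to 0.028), Sqle (-0.37 to 0.25), Lss (-0.34 to 0.10), Cyp51 (-0.062 to 0.31), Nsdhl (-0.19 to 0.27), Sc5d (-0.071 to 0.64), Dhcr7 (-0.22 to 0.42), Insig1 (-0.24 to 0.076), Srebf2 (-0.31 to 0.16), Nr1h3 (-0.14 to 0.56), Pparg (-0.020 to 0.23) and Lpcat3 (-0.27 to 0.15). The cause of these changes was not tested.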
